A study of Equus caballus with 22 samples.

Results

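MMP1 and TIMP1 are an enzyme and its inhibitor. MMP1, the interstitial collagenase, is a secreted metalloproteinase that cuts the triple helix of fibrillar collagens. TIMP1, tissue inhibitor of metalloproteinases 1, is a small secreted protein that binds the active site of such enzymes, MMP1 among them, and blocks them. In the endometrium, the inner lining of the uterus, matrix is remodelled through the cycle and in early pregnancy, and the horse embryo moves freely in the uterine lumen during the days studied here, so that no implantation site exists yet.

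The genes were followed by every non-control probe whose annotated transcript is the horse RefSeq transcript of MMP1 (NCBI gene 100033896) or TIMP1 (NCBI gene 100034220). This gave 13 of the 43603 probes on the array, 8 for MMP1 and 5 for TIMP1, and 2 of the 675 genes that could be named. The probes of one gene target the same transcript and are not replicates. The probe with the highest mean signal stands for each gene where a single value is given, A_69_P004162 for MMP1 and A_69_P001002 for TIMP1.

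Endometrial biopsies came from warmblood mares on 1-colour Agilent horse arrays, 22 in all. At day 12, 6 mares (numbers 1 to 6) each gave a sample when pregnant, taken once the embryo had been recovered, and a control sample when not pregnant. At day 8, 5 mares (numbers 1, 2, 4, 5 and 6) gave both. No other treatment is labelled, the labels give no age for the mares, and whether the same number means the same animal on both days is not stated. A level below is a probe's log2 intensity minus that of the array's 75th percentile. A change is pregnant minus control within a mare, tested with limma and adjusted over all probes by Benjamini-Hochberg, with an adjusted p under 0.05 as the threshold.

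Per array, 74.2% to 92.9% of spots were well above background, which is the scanner software's flag for a signal clearly over its local background, and no spot was saturated. The tissue label was borne out by the few defining markers that could be named: the epithelial splicing factor ESRP1, the stromal proteoglycans DCN and LUM and the oestrogen receptor ESR1 were well above background on all 22 arrays. Mare 3 stood apart at day 12. Over the 31038 probes well above background on all 22 arrays, its changes had a correlation of -0.154 with the average change in the remaining mares. For each of those mares it was 0.103 to 0.597, so values without mare 3 are given beside the day 12 results. At day 8 these correlations were -0.135 in mare 4, -0.028 in mare 1 and 0.127 to 0.265 in the others. Both arrays of a mare lay on the same slide, and the days shared no slide and no scan day.

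TIMP1 was well above background in all 110 probe values, with intensities of 852 to 6237 units, and its 5 probes differed by 0.069 to 0.458 log2 on an array. At day 12 its level was higher in pregnancy in every mare. In the 6 control samples the level had a lowest value of 0.23, a median of 0.75 and a highest of 0.96, and in the 6 pregnant samples 0.80, 1.24 and 2.13. The groups overlapped, since the lowest pregnant value, that of mare 3, lay below the control values of mares 2 and 5. Mare 5 was the highest of both groups.

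Within mares the changes of TIMP1 at day 12 were 0.97 in mare 1, 0.54 in mare 2, 0.01 in mare 3, 0.56 in mare 4, 1.17 in mare 5 and 0.35 in mare 6. Mare 3 thus had almost no change, while mares 1 and 5 had about a doubling. The mean change was 0.60 ± 0.15 log2 (SE, n = 6 mares), 1.52-fold, with a limma adjusted p of 0.117, which did not pass the threshold. All 5 probes gave changes of 0.60 to 0.67, with adjusted p from 0.0661 to 0.117, so that 0 of 5 passed. The background was 102 of 38456 probes, 0.265%. All 5 probes had an unadjusted p under 0.05, as had 12.5% of all probes. The exact sign-flip test over the 6 mares gave p = 0.03125 (two-sided), the smallest it can give, and 2.25% of probes were higher in all 6 mares.

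**Figure D1:**
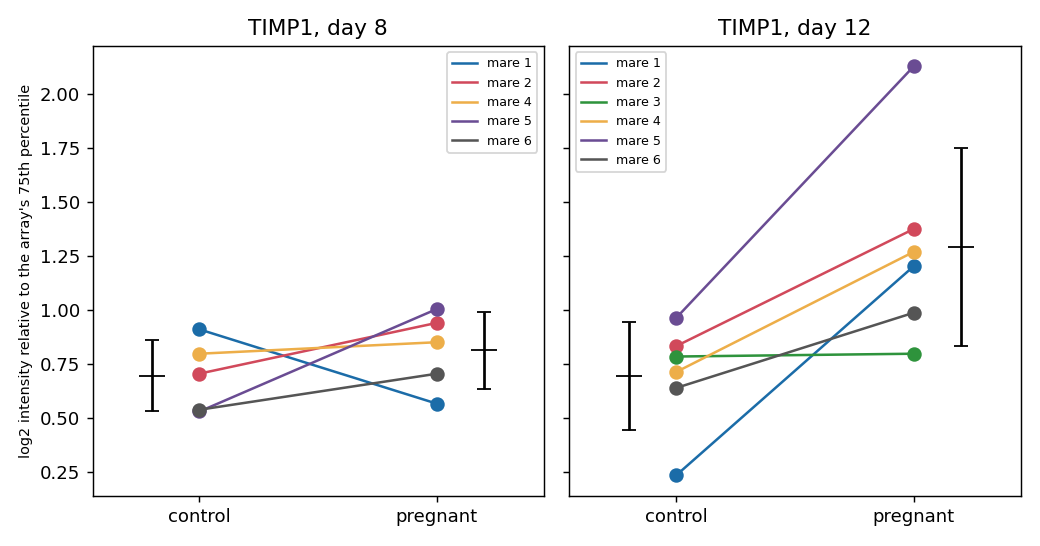
TIMP1 level (log2 intensity relative to the array's 75th percentile, probe A_69_P001002) in control and pregnant endometrium, 1 line per mare; black bars are group mean and SD. At day 12 (n = 6) all lines go up, that of mare 3 by only 0.01, and at day 8 (n = 5) the line of mare 1 goes down and the others up.

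Leaving out mare 3, which had the smallest TIMP1 change, changed the call for TIMP1 at day 12. The change was then 0.72 log2 with a limma adjusted p of 0.0277, and all 5 probes passed with changes of 0.72 to 0.79 and adjusted p from 0.0149 to 0.0277. In that fit 2.54% of all probes passed, against 0.265% with mare 3. None of the 5 probes passed when any other mare number was left out. Each of those numbers was dropped on both days, whereas number 3 occurs at day 12 only. These fits therefore held fewer arrays than that without mare 3, and the p-values are not directly comparable. Without mares 1, 2, 4, 5 or 6 the lowest limma adjusted p was 0.257, 0.286, 0.220, 0.106 or 0.196, in that order. With all mares, 2 or 3 of the 5 probes passed under 4 other settings, among them slide as the block (2 probes, lowest limma adjusted p = 0.0371). None passed with the day fitted alone (lowest limma adjusted p = 0.263) or with normexp background correction (0.337). By slide, the mean TIMP1 change was 0.49 (mares 1 and 3), 0.54 (mare 2), 0.45 (mares 4 and 6) and 1.17 (mare 5). All 4 had to be positive, since the change was positive in every mare and both arrays of a mare shared a slide.

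At day 8 the TIMP1 levels of the groups lay closer together. The control levels of mares 1, 2, 4, 5 and 6 were 0.91, 0.70, 0.80, 0.53 and 0.54, and the pregnant levels 0.57, 0.94, 0.85, 1.00 and 0.70. The ranges overlapped over most of their length. The change was 0.12 ± 0.16 log2 (SE, n = 5 mares, 95% interval -0.23 to 0.47, limma adjusted p = 0.951). It was positive in 4 of 5 mares and negative in mare 1, and the exact sign-flip test gave p = 0.4375, where 0.0625 is the smallest it can give. No probe of the array passed the threshold at day 8 (0 of 38452, 0%), and 5.83% had an unadjusted p under 0.05, none of TIMP1 among them.

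The TIMP1 change at day 12 exceeded that at day 8 by 0.48 ± 0.22 log2 (SE), with a limma adjusted p of 0.468, so the effects of the days were not shown to differ. Without the arrays numbered mare 1 on both days this difference was 0.29. Of all probes 0.0104% passed this test of the difference, and all 5 TIMP1 probes, at 0.48 to 0.61, had an unadjusted p under 0.05, as had 10.5% of probes. The order of the group means was 1.29 ± 0.46 in pregnant samples of day 12 (SD, n = 6), 0.81 ± 0.18 in pregnant samples of day 8 (n = 5), 0.70 ± 0.17 in controls of day 8 (n = 5) and 0.69 ± 0.25 in controls of day 12 (n = 6). The last 3 lay within one another's spread.

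Between days, TIMP1 in control samples differed by -0.00 log2 (day 12 minus day 8, limma adjusted p = 0.997), where 7.1% of all probes passed. In pregnant samples it was 0.48 ± 0.22 log2 higher at day 12 (SE, limma adjusted p = 0.122), where 24.3% of all probes passed. Day, slide, scan day and scanner software version cannot be told apart in these comparisons. In whole biopsies, fewer cells of a type and less RNA per cell cannot be told apart either.

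MMP1 lay close to the detection limit. Its intensities ran from 1.21 to 107.5 units, and 71 of its 176 probe values were well above background. By group these were 29 of 48 in controls of day 12, 19 of 48 in pregnant samples of day 12, 22 of 40 in controls of day 8 and 1 of 40 in pregnant samples of day 8. All 8 probes passed the filter of 5 arrays with such a signal, counted over the 22 arrays whatever their group. On 8 arrays no MMP1 probe was well above background, on 5 arrays 1 to 4 probes were, and on 9 arrays 5 or more, with all 8 on 3 arrays.

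The detected probes were not spread evenly over mares. Of the 8 probes, mares 1, 2, 4, 5 and 6 had 7, 0, 8, 6 and 1 well above background in the day 8 control and 0, 0, 0, 1 and 0 in the day 8 pregnant sample. At day 12, mares 1 to 6 had 0, 5, 7, 8, 7 and 2 in the control and 0, 2, 8, 7, 0 and 2 in the pregnant sample. Mare 1 thus had no detected MMP1 probe on either array of day 12, and mares 3 and 4 had at least 7 on both.

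**Figure D2:**
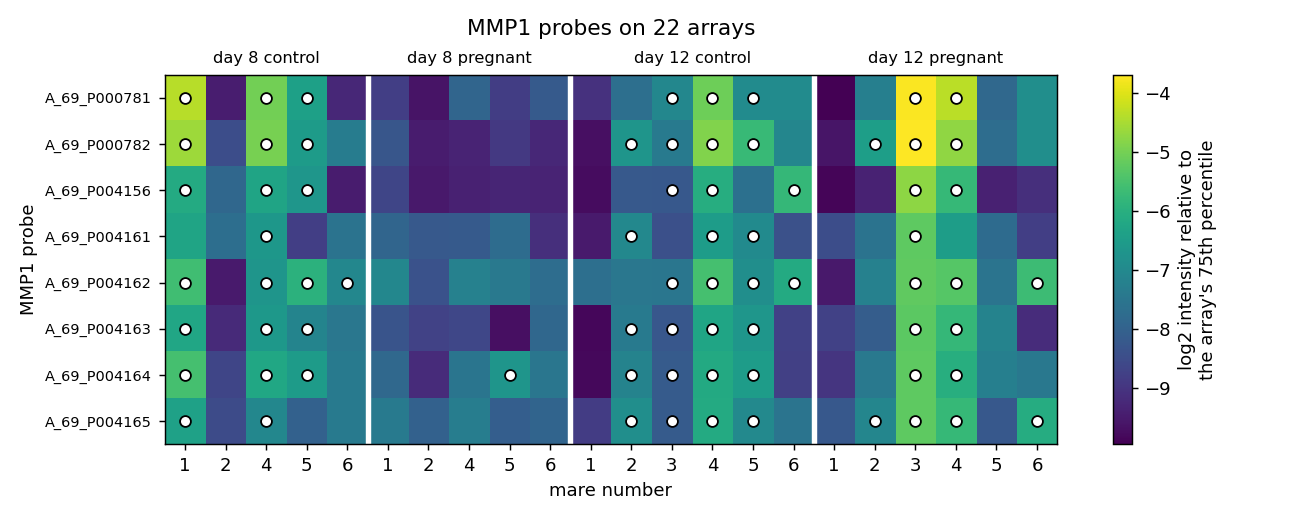
Level of each of the 8 MMP1 probes (rows; colour is log2 intensity relative to the array's 75th percentile) on each of the 22 arrays (columns, by group and mare number). White dots mark values well above background; 1 of 40 values has a dot in the day 8 pregnant block, against 22 of 40 in its control block.

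At day 8 MMP1 was lower in pregnant samples by all 8 probes, but no probe passed the threshold. The mean over the 8 probes in the controls of mares 1, 2, 4, 5 and 6 was -5.65, -8.67, -6.19, -6.99 and -7.85, and in the pregnant samples -8.02, -8.89, -8.18, -8.33 and -8.36. The control of mare 2 lay among the pregnant values, and the other 4 controls lay above all of them. Within mares the mean over probes was lower by 2.38, 0.22, 1.99, 1.34 and 0.51 log2, with 8, 5, 8, 7 and 6 of 8 probes lower. The spread of the group was -7.07 ± 1.22 in controls and -8.36 ± 0.33 in pregnant samples (SD, n = 5 each).

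The 8 probes gave day 8 differences of -2.66 to -0.27 log2, with limma adjusted p from 0.724 to 0.964. Of these, 4 had an unadjusted p under 0.05, against 5.83% of all probes. The probe with the highest signal gave -0.60 ± 0.49 log2 (SE, n = 5 mares, 95% interval -1.68 to 0.48, adjusted p = 0.899) and was lower in 4 of 5 mares. It was -0.39 without mare 1, -0.62 without mare 4, -1.03 without mare 2 and -0.38 without mare 5. With normexp background correction the 8 probes gave only -0.37 to -0.09, and in the authors' deposited value table the 4 probes filled on all arrays gave -0.52 to -0.12. Probe A_69_P000782 gave the largest difference, -2.66 ± 0.65 log2 (SE, limma adjusted p = 0.724), and was lower in 5 of 5 mares, as were 4.25% of all probes. Its levels were -4.60, -8.48, -4.98, -6.51 and -7.32 in the controls of mares 1, 2, 4, 5 and 6 and -8.27, -9.47, -9.32, -8.90 and -9.25 in the pregnant samples. The control of mare 2 again reached the pregnant range.

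Because 7 of the 8 probes were well above background on no pregnant array of day 8, the size of their differences there is uncertain. As a cautious measure, each pregnant array counted with its faintest signal well above background, or with the probe's own signal if brighter. Control arrays counted with their own signal, also where it was not well above background, so the folds are not strict lower limits. By this measure the controls were 1.89-fold higher by A_69_P000782, 1.32-fold by A_69_P000781, 1.25-fold by A_69_P004162 and 1.01-fold by A_69_P004156, and by 3 probes they were not higher. In 5 of 8 MMP1 probes no pregnant and 3 or more control arrays of day 8 were well above background. This held for 0.187% of all tested probes and for 1.59% of the 4541 probes well above background on 5 to 17 arrays. The 8 probes target 1 transcript on the same arrays, so the 5 are not independent and were not tested against these shares.

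**Figure D3:**
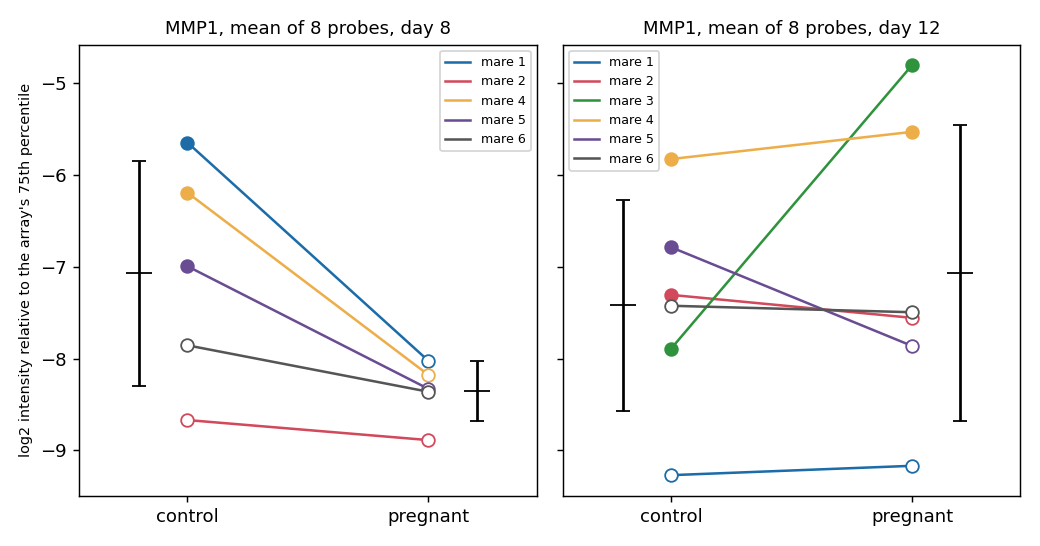
Mean level over the 8 MMP1 probes (log2 intensity relative to the array's 75th percentile), 1 line per mare, with group mean and SD in black. Filled points have 5 or more probes well above background; at day 8 (n = 5) all lines go down, and at day 12 (n = 6) the line of mare 3 goes up by 3.09 while the others change by -1.08 to 0.30.

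At day 12 MMP1 had no common direction. The mean over its probes had a lowest value of -9.27, a median of -7.36 and a highest of -5.83 in the 6 controls, and -9.17, -7.52 and -4.80 in the 6 pregnant samples, so the ranges overlapped almost fully. Within mares 1 to 6 the changes were 0.10, -0.25, 3.09, 0.30, -1.08 and -0.07 log2. All 8 probes were higher in mares 3 and 4, and all 8 were lower in mare 5. The representative probe gave 0.11 ± 0.45 log2 (SE, n = 6 mares, 95% interval -0.88 to 1.09, limma adjusted p = 0.946), and the 8 probes ranged from -0.43 to 0.69, none of them called. Without mare 3 the representative probe gave -0.32 log2, the opposite direction.

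The difference between the days in the pregnancy effect on MMP1 was 0.71 ± 0.67 log2 by the representative probe (SE, limma adjusted p = 0.730), the smallest of the 8. The 8 probes ran from 0.71 to 3.06, with a median of 1.55, and none passed. Of these probes of 1 transcript, 4 had an unadjusted p under 0.05, as had 10.5% of all probes. Without mare 3 the difference by the representative probe was 0.27. The group means of this probe ran in the order -6.75 ± 1.67 in pregnant samples of day 12 (SD, n = 6), -6.86 ± 0.86 in controls of day 12 (n = 6), -6.95 ± 1.53 in controls of day 8 (n = 5) and -7.55 ± 0.52 in pregnant samples of day 8 (n = 5), and no neighbours differed beyond their spread. Control samples differed between days by 0.09 log2 by this probe (day 12 minus day 8, limma adjusted p = 0.944). The 8 probes ran from -0.89 to 0.09, of which 6 were lower at day 12 and 0 passed. By the mean over the 8 probes the order differed, with -7.07 in controls of day 8 and -7.42 in controls of day 12. By the representative probe pregnant samples were higher at day 12 by 0.80 ± 0.69 log2 (SE, limma adjusted p = 0.418). This was 1.48 without the arrays numbered mare 1 on both days, 0.50 without mare 3 and 0.19 in the authors' deposited value table. A_69_P000782 was nearest to the threshold, at 2.53 ± 0.86 log2 (SE, limma adjusted p = 0.0503). With the day 8 arrays at their faintest signal well above background and the day 12 arrays at their own, it was 1.73-fold. Without the arrays numbered mare 1 on both days, 1 MMP1 probe passed (limma adjusted p = 0.0136).

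**Figure D4:**
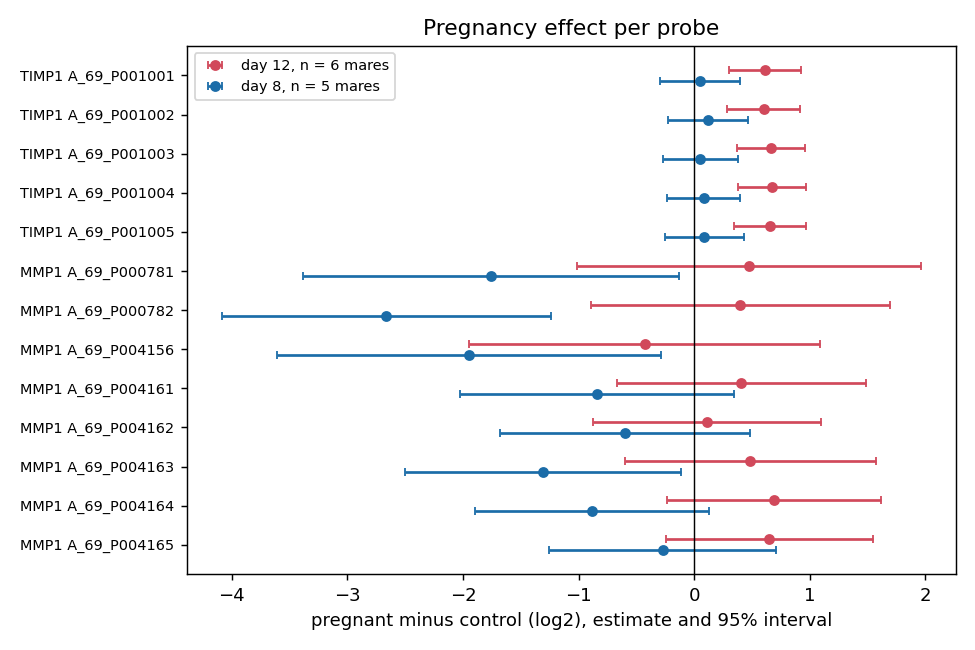
Pregnancy effect (pregnant minus control, log2) of each of the 13 probes with its 95% interval from limma, day 12 in red (n = 6 mares) and day 8 in blue (n = 5). The TIMP1 probes at day 12 lie between 0.60 and 0.67, whereas the MMP1 probes at day 8 spread from -2.66 to -0.27 with far wider intervals.

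The change of MMP1 was also set against that of its inhibitor within each mare, where the value depended on the MMP1 probe and on single mares. At day 12 the MMP1 change minus the TIMP1 change was -0.49 log2 by the representative probes (SD 1.75, n = 6 mares, exact sign-flip p of 0.5) and -0.29 by the means over probes. It was -1.04 without mare 3 and -0.03 without mare 1. At day 8 it was -0.72 by the representative probes (SD 1.03, n = 5 mares) and -1.36 by the means over probes, with no test given here, since the representative MMP1 probe was well above background on none of the 5 pregnant arrays. Over the 22 arrays the levels of the genes correlated at -0.08 (Pearson), a description over arrays that share mares and slides.

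Other named members of the matrix system were measured less completely. A list of 48 proteinases, inhibitors and matrix proteins had 15 members named on the array and 13 tested, the members described here included. At day 12, 8 were higher and 5 lower in pregnancy, with a median of 0.09 log2 against -0.02 over all probes, and at day 8 again 8 were higher and 5 lower, with a median of 0.10 against -0.01. None passed at either day. Between days, 1 member was lower at day 12 in controls past the threshold, as were 4.62% of all probes: the aggrecan-cleaving proteinase ADAMTS4 (-1.23 ± 0.27 log2, SE, limma adjusted p = 0.0236). In pregnant samples 1 was higher, as were 11.1% of all probes, the inhibitor TIMP3 (0.64 ± 0.20, limma adjusted p = 0.0370). A further 4 were lower, as were 13.1% of all probes, namely ADAMTS4, the proteinase MMP26, the collagen COL2A1 and the proteoglycan LUM.

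MMP9, a gelatinase that degrades type IV collagen and denatured collagens, was well above background on all 22 arrays. At day 8 its controls in mares 1, 2, 4, 5 and 6 had levels of -2.84, -4.61, -3.47, -4.60 and -4.82, and its pregnant samples -3.89, -5.82, -5.49, -4.96 and -5.09. It was lower in 5 of 5 mares, as were 4.25% of all probes, by 0.98 ± 0.55 log2 (SE, limma adjusted p = 0.858), which did not pass. At day 12 its change was 3.65 in mare 3 and -1.06 to 0.19 in the others. TIMP3, which binds to the matrix and inhibits metalloproteinases, differed by 0.34 ± 0.16 log2 at day 12 (SE, limma adjusted p = 0.422) and was higher in 4 of 6 mares, mare 3 being one of the 2 in which it was lower.

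**Figure D5:**
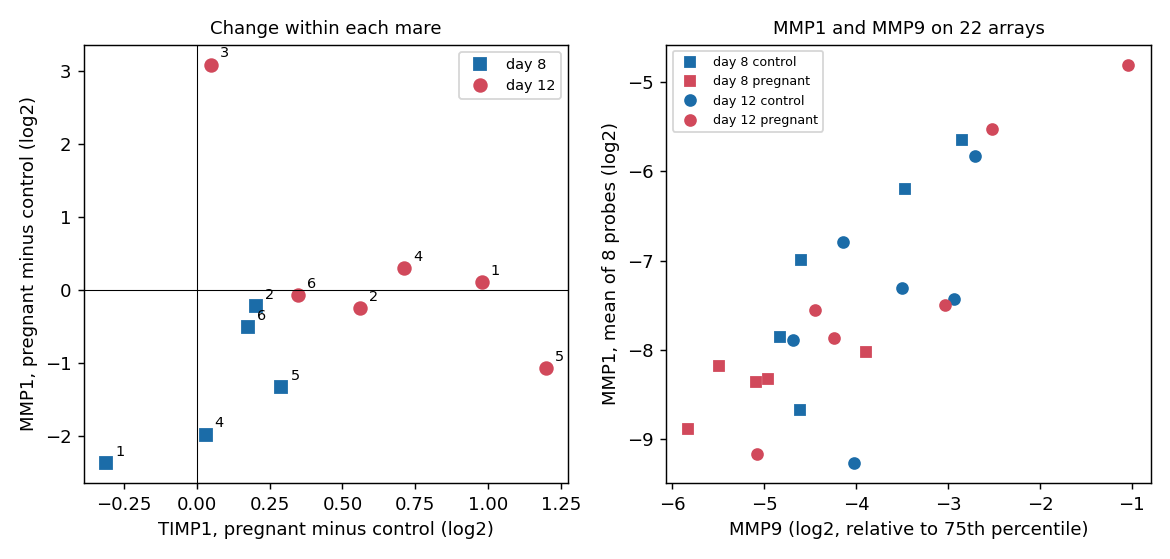
Left, change of MMP1 (mean of 8 probes) against change of TIMP1 (mean of 5 probes) in each mare, labelled by mare number, pregnant minus control in log2, for day 8 (n = 5, squares) and day 12 (n = 6, circles); mare 3 of day 12 stands alone at 3.09 for MMP1. Right, level of MMP1 (mean of 8 probes) against that of MMP9 on the 22 arrays, both as log2 relative to the 75th percentile, coloured by pregnancy; the highest value of both is the pregnant sample of mare 3 at day 12.

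Among 24 cytokines, receptors and factors known to act on the collagenase or its inhibitor, 9 were named on the array and all 9 were tested. At day 12, 7 were higher and 2 lower in pregnancy, with a median of 0.27 log2, and at day 8, 4 were higher and 5 lower, with a median of -0.06. None passed at either day. PTGS2, the inducible enzyme of prostaglandin synthesis, was higher in 6 of 6 mares at day 12, by 0.27 ± 0.11 log2 (SE, limma adjusted p = 0.354), and lower in 5 of 5 at day 8, by 0.37 ± 0.12 (SE, adjusted p = 0.833), and the test of that difference gave an adjusted p of 0.258. TNF and TGFB1 were likewise lower in 5 of 5 mares at day 8, by 0.42 ± 0.16 and 0.22 ± 0.14 log2 (SE, limma adjusted p = 0.833 and 0.861). Of all probes, 4.25% were lower in every mare at day 8 and 2.25% higher in every mare at day 12. The 4 inducers higher at day 8 were FOS (1.02 log2), IL6 (0.35), IL1R1 (0.15) and ESR1 (0.09). Between days, ESR1, the oestrogen receptor, was 1 of 9 past the threshold in pregnant samples, where 13.1% of all probes were called lower. It was lower by 0.94 ± 0.19 log2 (SE) in pregnant samples of day 12 than of day 8 (limma adjusted p = 0.00632).

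Markers of other cells in the biopsy had day 12 differences of either sign. TAGLN, 1 of 5 smooth muscle markers named on the array, was higher by 0.90 ± 0.23 log2 in 6 of 6 mares (SE, limma adjusted p = 0.139), and its linear level ranged from 0.371 to 0.787 in pregnant samples and from 0.139 to 0.473 in controls. PECAM1, 1 of 5 endothelial markers, was higher by 0.44 ± 0.16 (SE, limma adjusted p = 0.305), with linear levels of 1.42 to 2.85 in pregnant samples and 0.914 to 2.10 in controls. Of 7 macrophage and dendritic cell markers 4 were named, with CD14 at 0.51 ± 0.16 log2 (SE, limma adjusted p = 0.214), ITGAX at 0.17, LAPTM5 at 0.08 and CD68 at 0.00, the last higher in 2 of 6 mares. Their summed linear level was 9.42 to 12.3 in pregnant samples and 6.94 to 12.0 in controls. For stroma, with 2 of 8 markers named, the sum was 12.7 to 22.04 and 13.9 to 19.2, and for epithelium, with 1 of 7, 5.53 to 8.69 and 5.68 to 8.62. ITGA2B, 1 of 4 platelet markers, was lower in 6 of 6 mares, by 0.29 ± 0.08 (SE, limma adjusted p = 0.158), with linear levels of 0.162 to 0.222 in pregnant samples and 0.189 to 0.283 in controls. For T and NK cells, with 2 of 8 markers named, CD2 was at 0.04 and GZMB at -0.07, and the sum was 1.80 to 18.5 and 3.62 to 17.5. None of these markers passed at day 12. All were well above background on the 12 arrays of day 12, except the macrophage marker ITGAX on 1 control array, and their part in the TIMP1 values was not tested. Of the 8 neutrophil and 4 red cell markers on the lists none was named on the array. The haemoglobin gene HBA2, which is not on the list, was named and differed by -0.40 ± 0.23 log2 at day 12 (SE, limma adjusted p = 0.519), higher in 1 of 6 mares.

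The named genes most like MMP1 over the 22 arrays, by the Pearson correlation of representative probes among 599 genes, were ILT11B (0.85), LOC100058291 (0.78), FCAR (0.78), MMP9 (0.75) and ILT11A (0.70). FCAR encodes a receptor for immunoglobulin A and was well above background on 7 arrays, and the ILT11 genes encode immunoglobulin-like receptors of leukocytes. Taken as deviations from the 4 group means, ILT11B (0.85), FCAR (0.77), LOC100058291 (0.77), MMP9 (0.75) and LMNA (0.74), which encodes the nuclear lamins A and C, ranked first. Without the arrays of mare 3, over 20 arrays, the correlations were 0.65 to 0.83 for the 5 genes by level and 0.71 to 0.84 for the 5 by deviation. The MMP1 probe itself was well above background on 11 of the 22 arrays.

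For TIMP1 the genes with the most similar levels included IFI27 (0.74), TMEM140 (0.73), GM2A (0.70) and OAS2 (0.69). IFI27 and OAS2 are interferon-induced genes, and GM2A encodes a lysosomal activator protein. As deviations from the group means, IFI27 (0.75), FEZ1 (0.73), GNLY (0.71), OAS2 (0.65) and HBA2 (0.64) ranked first, of which GNLY encodes a protein of lymphocyte granules and HBA2 a haemoglobin chain. Without mare 3 the correlation with IFI27 was 0.75 by level and 0.73 by deviation. By deviation GNLY (0.77) and HBA2 (0.76) were then above IFI27. MMP1 stood at place 370 of 599 for TIMP1 by level and at place 507 by deviation.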

How the data were processed

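Spot intensities of 22 arrays were read from the scanner output that the authors deposited. The submitters' processing notes name Agilent Feature Extraction 10.5.1.1, and the file headers name that version for day 12 and 10.7.3.1 for day 8. Per the file headers the processed intensity had its background subtracted and no scaling across arrays. The value table deposited by the authors, read as log2 because it followed the scanner's log2 intensity (r 0.986 to 0.997 per array), served as an alternative; its centring and normalisation stay unknown.

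The processed intensity was taken as log2 minus the array's 75th percentile over non-control spots. Outlier spots marked as non-uniform, 3 to 152 on an array, were dropped before averaging the spots of a probe. The filter asked for 5 or more arrays well above background. Probes with too few values for a comparison were left out of it (38452 to 38456 tested). Symbols came from a RefSeq gene table by transcript accession: 1394 probes had 1 symbol, 1 had several and 42208 had none. Coordinates and sequences are not printed, since no genome build of the array was used here.

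Changes were tested with limma 3.58.1 in R 4.3.3 over all 22 arrays, with mare within day as a fixed block and 1 pregnancy effect per day. Days were compared in fits of the 11 control or the 11 pregnant arrays without covariates. The pairing comes from the labels. As a check, over 31038 probes the deviations from the group means of both arrays of a mare had a correlation between 0.289 and 0.725 (day 12) or 0.321 and 0.817 (day 8). Between days, same-numbered arrays correlated at -0.153 to 0.342, so the numbers were not taken to pair the days. The precision is limited by the number of arrays. The p-values of pregnancy effects rest on how the changes within mares vary from mare to mare. Those between days rest on the spread between arrays of 1 state. The fit was tested on simulated data.

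The alternatives were normexp background correction (offset 50, on the median signals, since the mean signal first intended is not a column of these files), quantile normalisation, the value table, other filters, a trended robust prior, the mean over a gene's probes, other blocks, each day alone and each mare left out. An exact sign-flip test and scan day as a random block were added after seeing the data. Members, gene lists and tests were chosen with earlier results of these data known. By the rule for named genes, all probes of both genes are reported, any member of the matrix and inducer lists may be named, and the 5 named genes most similar to each are given, except 1 that is not reported here.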

Additional observations from a re-analysis of the deposited data

Results flagged for a closer look

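In 6 of 92 sets of 4 to 6 values 1 sample lay far from the others, by the ratio of its gap to the nearest value over the whole range (Dixon's test). Chance flags about 1 in 20 sets, and the sets of one gene are not independent.

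The pregnant sample of mare 5 at day 12 had a TIMP1 level of 2.10 log2 as the mean over its probes, with the nearest other mare at 1.15. By single probes it was 2.09 for A_69_P001003 (nearest 1.07), 2.10 for A_69_P001004 (nearest 1.11) and 2.15 for A_69_P001005 (nearest 1.14). Without the arrays numbered mare 5 on both days the TIMP1 change at day 12 was 0.49 log2 by the representative probe (limma adjusted p = 0.160).

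The MMP1 change of mare 3 at day 12 was 3.09 log2 as the mean over 8 probes, and the nearest other mare was at 0.30. The level of MMP1 probe A_69_P004156 in the day 8 pregnant sample of mare 1 was -8.64, with the nearest at -9.30, and none of these 5 values was well above background.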

How the results depend on the processing

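By the representative probes, the day 8 effects on both genes, the differences between the days in the pregnancy effect and the comparisons of pregnant samples between days kept their direction and stayed on the same side of the threshold under every alternative that gave a value, before any shift of all probes is taken off. In pregnant samples between days 1 of 8 MMP1 probes passed with a trended robust prior (adjusted p = 0.0414) and 1 without mare number 1 on both days (0.0136). MMP1 had no value when the filter asked for a signal well above background on all 22 arrays. By the representative probe the TIMP1 change at day 12 stayed positive, at 0.44 to 0.72 log2 (adjusted p 0.0277 to 0.437). It passed in 1 refit, without mare 3 (leaving out each mare in turn gave 0.49 to 0.72). The exact sign-flip test (0.60, p = 0.03125) was not adjusted over probes, so its p was not held against the threshold. Of the 5 TIMP1 probes, 3 passed with a trended robust prior (lowest adjusted p = 0.0355), and 2 each with the filter on all 22 arrays (0.0432), slide as the block (0.0371) and the value table (0.0392). Without the replicate block it was 0.60 with an adjusted p of 0.437. Normexp correction moved the median of all probes to 0.33 log2 at day 12, 0.37 for the difference of effects and 0.38 between days in pregnant samples. Relative to these shifts TIMP1 was at 0.11, -0.01 and -0.06, and MMP1 at 0.51, 0.63 and 0.46. The MMP1 change at day 12 was -0.32 to 0.50 with a mare left out, negative without mare 3, and MMP1 minus TIMP1 became 0.41 with normexp. In controls between days MMP1 turned negative with the mean of its probes (-0.35), quantile normalisation (-0.018), normexp (-0.15) and the value table (-0.10), and was -0.42 to 0.59 with a mare left out. TIMP1 there turned positive with quantile normalisation (0.042), the value table (0.10) and slide as a random block (0.0098), and was -0.10 to 0.14 with a mare left out.

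Counts of probes past the threshold moved more. At day 12, with 102 called, they were 218 with the filter on all arrays, 287 with a trended robust prior, 13 with normexp (100% higher, against 79.4%), 303 with the value table, 41 with no replicate block, 9 with the day alone and 22 to 977 with a mare left out. For the difference of effects, with 4 called, they were 2 with no filter, 0 with the filter on all arrays, 11 with the trended prior, 0 with quantile normalisation, 0 with the value table, 0 with no replicate block, 2 with slide as the block and 0 to 33 with a mare left out. In controls between days, with 2732 called, they were 4458 with quantile normalisation, 1630 with normexp, 282 with the value table (3.90% higher, against 34.9%), 31 with mare number as replicate block, 772 with slide and 211 with scan day as random blocks, and 347 to 2046 with a mare left out. In pregnant samples, with 9332 called, they were 389 with normexp (34.7% higher, against 45.9%), 836 with the value table, 5095 with mare number as replicate block, 3437 with a random block for scan day and 5478 to 8833 with a mare left out. The cause was not tested. Signal over background limits MMP1, of which 71 of 176 values were well above background.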

Other observations

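MMP13, another collagenase, did not pass the filter and has no test, but its highest value was in the day 8 control of mare 1, which also had the highest mean MMP1 level of its group. On day 8 arrays it was well above background in the controls of mares 1, 4 and 6 and in the pregnant sample of mare 1, and on no array of day 12. In mare 1 its intensity was 281 units in the control and 11.7 in the pregnant sample, and in the controls of mares 4 and 6 it was 7.29 and 7.68, in that order. MMP3, stromelysin, an activator of procollagenases, was well above background on 1 of 22 arrays, the pregnant sample of mare 2 at day 12.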
